A study of Mus musculus with 6 samples.

Results

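The interferon-induced effector genes are the mouse protein-coding genes whose symbols begin with Oas, Ifit, Ifi and a digit, Isg, Gbp and a digit, Irgm, Iigp or Rsad2. The list was chosen with earlier results of these data known, and membership was set by name, from the RefSeq annotation of mm10 (GRCm38.p6). The effector genes number 60 of 21887 coding genes. Their chromatin was read from 2 lists of ATAC-seq peaks, which mark stretches of open chromatin that the Tn5 transposase can enter. A peak was given to an effector gene when an end of that gene was the nearest coding gene end to the peak's midpoint, within 100 kb. In this way 16 of the 12105 listed peaks belonged to the effector genes, and no further peak was nearest to one of them from beyond the limit. The peak farthest inside the limit lay 35797 bp from its gene.

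The libraries came from microglia, the macrophages that live in the brain, sorted from C57BL/6J mice of 8 weeks. The conditional knockout (cKO) was Mir137loxP/loxP;Tmem119-CreERT2 and the control (cWT) Mir137+/+;Tmem119-CreERT2, so that all animals carried the tamoxifen-inducible recombinase and only the cKO carried loxP-flanked alleles of the microRNA gene Mir137. Tamoxifen was given on 7 consecutive days from 7 to 8 weeks of age, and the recombinase is driven from Tmem119, a gene of microglia. The labels name 3 libraries per genotype with about 50000 cells each, and the series states 4 mice without tying libraries to animals.

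Each genotype has 1 list of peaks called specific to it, 8615 for cKO and 3490 for cWT. Neither list holds a value per library, so no spread between replicates and no sequencing depth could be given, and all intervals below cover counting error over peaks or genes only. The nearest listed peak lay 1281137 bp from Mir137 in cKO and 994734 bp in cWT, so the lists hold no check of the deletion, and because they hold specific peaks alone they hold no check of the sorted cell type. The lowest adjusted p that the authors give for any listed peak is 0.194 in cKO and 0.231 in cWT. What that value tests is not stated, so it is not read as a test of cKO against cWT. Being listed is the authors' call, and it is used here as a description.

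Interferons are signals of infection. Type I interferons act through receptor-bound JAK kinases on STAT proteins, which join IRF9 and bind the interferon-stimulated response element upstream of target genes, while interferon-gamma acts through STAT pairs on the gamma-activated site. The target genes encode the effectors: Oas enzymes make oligoadenylates when they meet double-stranded RNA, Ifit proteins bind foreign RNA, Gbp and Irgm proteins are GTPases that act on the membranes around intracellular microbes, Rsad2 (viperin) makes a chain-terminating nucleotide, and Isg15 is a ubiquitin-like tag. Microglia can express many of them together as an interferon-responsive state.

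Of the 16 effector gene peaks, 2 lay over the promoter of a gene whose promoter sequence RefSeq gives here, and both were specific to cKO. Windows from 250 bp before to 50 bp after a start were touched by these 2 of 13 cKO peaks and 0 of 3 cWT peaks, beside 6.37% of all assigned cKO peaks and 8.06% of all assigned cWT peaks, with starts of all coding genes counted. The peaks of Gbp8 and Ifi27l2b could not be placed against a promoter in this way. Those promoters, of Irgm1 and Rsad2, are shown here beside 4 others: Oasl2, the effector gene with a cWT-specific peak near its start, and Gbp2, Isg15 and Ifit1, which have no specific peak over the stretch. Each line is the 250 bases before the annotated start in RefSeq, build GRCm38.p6, read 5′ to 3′ on the strand of the gene. Capitals mark every match, on either strand, to the core of the interferon-stimulated response element, which is a pair of GAAA runs with any 2 bases in between.
Irgm1: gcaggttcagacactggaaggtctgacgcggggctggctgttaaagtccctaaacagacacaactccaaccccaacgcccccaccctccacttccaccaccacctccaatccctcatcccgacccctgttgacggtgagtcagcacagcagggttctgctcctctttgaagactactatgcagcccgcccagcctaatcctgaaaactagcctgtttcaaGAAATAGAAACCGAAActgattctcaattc
Rsad2: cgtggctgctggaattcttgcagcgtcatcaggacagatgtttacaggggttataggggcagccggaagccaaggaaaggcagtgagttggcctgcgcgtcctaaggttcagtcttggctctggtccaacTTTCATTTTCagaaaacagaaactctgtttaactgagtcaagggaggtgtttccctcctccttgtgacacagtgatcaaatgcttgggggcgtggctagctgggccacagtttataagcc
Oasl2: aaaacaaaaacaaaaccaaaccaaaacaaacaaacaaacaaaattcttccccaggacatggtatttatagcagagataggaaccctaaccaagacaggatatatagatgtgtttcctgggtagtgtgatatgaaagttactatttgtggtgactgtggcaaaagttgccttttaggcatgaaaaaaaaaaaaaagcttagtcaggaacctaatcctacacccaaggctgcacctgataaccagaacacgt
Gbp2: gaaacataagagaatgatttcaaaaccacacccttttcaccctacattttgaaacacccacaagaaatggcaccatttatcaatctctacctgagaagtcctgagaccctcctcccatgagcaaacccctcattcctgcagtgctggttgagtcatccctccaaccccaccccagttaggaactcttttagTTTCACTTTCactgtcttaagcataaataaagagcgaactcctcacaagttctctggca
Isg15: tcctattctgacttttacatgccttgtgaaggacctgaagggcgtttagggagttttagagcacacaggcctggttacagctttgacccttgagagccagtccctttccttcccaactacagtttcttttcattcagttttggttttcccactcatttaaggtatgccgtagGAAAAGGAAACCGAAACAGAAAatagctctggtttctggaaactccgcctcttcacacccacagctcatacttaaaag
Ifit1: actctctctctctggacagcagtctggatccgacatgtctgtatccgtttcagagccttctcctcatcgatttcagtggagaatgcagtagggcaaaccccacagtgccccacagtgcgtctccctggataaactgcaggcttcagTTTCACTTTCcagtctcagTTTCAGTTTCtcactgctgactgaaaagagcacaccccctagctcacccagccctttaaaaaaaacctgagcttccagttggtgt
The stretches lie at chr11:48871421-48871670 on the minus strand for Irgm1, chr12:26456453-26456702 on the minus strand for Rsad2, chr5:114896684-114896933 on the plus strand for Oasl2, chr3:142620413-142620662 on the plus strand for Gbp2, chr4:156200819-156201068 on the minus strand for Isg15 and chr19:34640639-34640888 on the plus strand for Ifit1. The capitals at Irgm1 cover 2 overlapping matches and those at Isg15 cover 3.

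Genotype-specific peaks were found at a minority of effector genes, as of all coding genes. Of the 16 peaks 13 were cKO-specific (81.25%), beside 71.7% of all assigned peaks. At least 1 cKO-specific peak was assigned to 11 of the 60 genes, 18.3% (exact 95% interval 9.52% to 30.4%), beside 22.5% of all coding genes. At least 1 cWT-specific peak was assigned to 2 of the 60, 3.33% (0.406% to 11.5%), beside 11.4% of all coding genes. A peak of either list was assigned to 13 genes, 21.7% (12.1% to 34.2%), beside 28.0%, and 47 had none. The shares for cKO and for either list were near those of all coding genes, and the share for cWT lay below, with an interval that reaches just past the background. None of the 60 had peaks of both lists, beside 5.95% of all coding genes.

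Many effector genes sit in clusters, where neighbouring genes divide the sequence in which a peak could be counted for each. The stretch of chromosome closest to a gene's ends had a median of 30.4 kb for the effector genes and 46.4 kb for all coding genes. It was above that of the median coding gene at 16 effector genes and not above it at 44, and the Gbp genes had a median of 57.1 kb. Per megabase of such sequence the effector genes held 5.84 cKO-specific peaks (exact Poisson 95% interval 3.11 to 9.99), and all coding genes held 4.65. For cWT the values were 1.35 (0.278 to 3.94) and 1.83. Both intervals include the value of all coding genes, but they are wide, resting on 13 and 3 peaks, and no difference was tested.

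**Figure D1:**
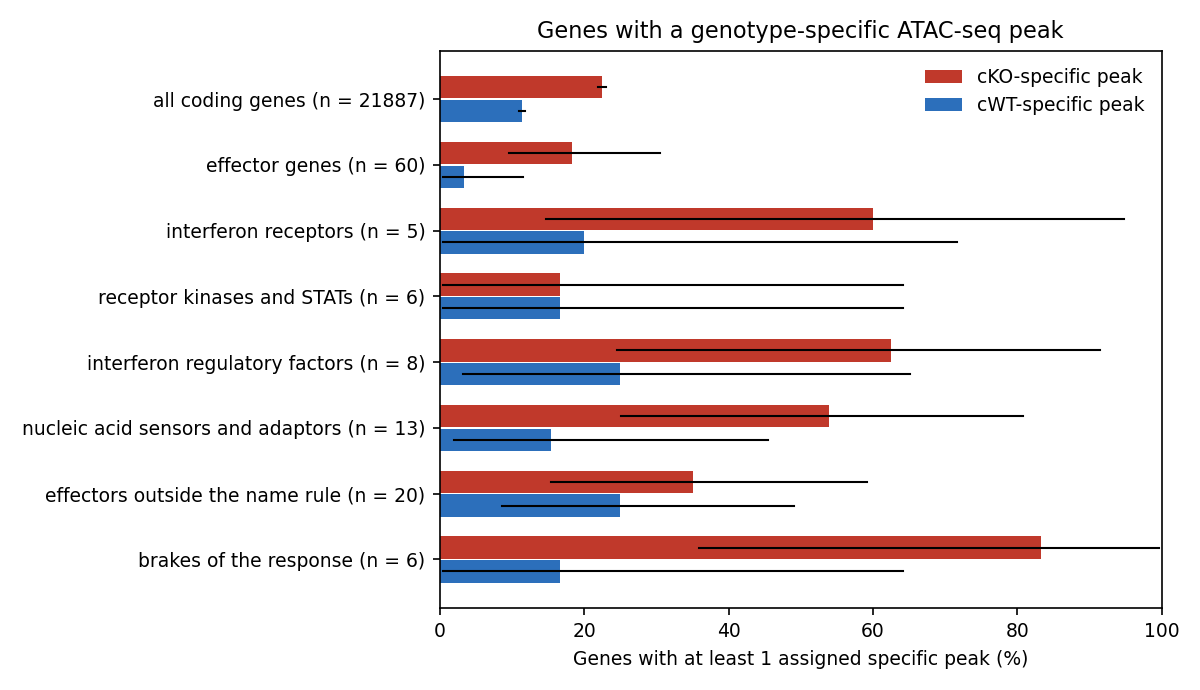
Horizontal bars give the percent of genes with at least 1 assigned cKO-specific (red) or cWT-specific (blue) peak in all coding genes, the effector genes and 6 groups of other interferon pathway genes. Black lines are exact 95% binomial intervals over genes. The effector genes sit at 18.3% and 3.33%, beside 22.5% and 11.4% of all coding genes.

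By genotype, 13 of the 16 peaks were cKO-specific and 3 were cWT-specific, a cKO share of 81.25% (exact 95% interval 54.4% to 96.0%) beside 71.7% of all assigned peaks. The interval includes the share of all assigned peaks. It counts peaks as independent, though Gbp5, Gbp8 and Ifi27l2b had 2 each, and it holds no spread between replicates. A shift of the effector genes towards either genotype was therefore neither read from these 16 peaks nor excluded. The list was chosen with earlier results of these data known, and no test was made of it.

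The immunity-related GTPase genes held the peak of highest score. Irgm1, whose GTPase controls the other members of its family, carried a cKO-specific peak at chr11:48871287-48872081, 795 bp wide, with an authors' signal of 26.8, a p-value of 0.381 and an adjusted p of 0.979. Its midpoint lay 264 bp upstream of the annotated start, and the peak covered all 250 upstream bases shown above. The peak stood at percentile 93.2 of the cKO list by score and 89.8 by signal. The response element matches of Irgm1, at 30 to 21 and 24 to 15 bases before the start, lay inside it, as did a match to the AP-1 motif TGANTCA. Irgm2, a second regulatory GTPase gene on the same chromosome, had a weaker cKO-specific peak at chr11:58225712-58225913, 3029.5 bp beyond its far end and 10835.5 bp downstream of its start (signal 15.4, p-value 0.833). Iigp1, an effector GTPase gene, had none. The nearest peaks to Iigp1 lay 108405 bp away in cKO and 104280 bp away in cWT.

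Rsad2 was the other gene with a peak on its promoter. The cKO-specific peak at chr12:26456089-26456613 was 525 bp wide and had its midpoint 101 bp inside the gene from the start (signal 18.4, p-value 0.749, adjusted p 0.979). It reached 161 bases upstream, and so included the response element match at 120 to 111 bases before the start and an AP-1 motif match at 87 to 81. Within the cKO list it stood at percentile 64.0 by score and 61.7 by signal, above the middle of the list but below Irgm1. The locus is sparse in specific peaks: the gap to the next peak was 1016997 bp in the cKO list and 846629 bp in the cWT list. Cmpk2, the nucleotide kinase gene beside Rsad2 that interferon also induces, had no peak of either list.

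**Figure D2:**
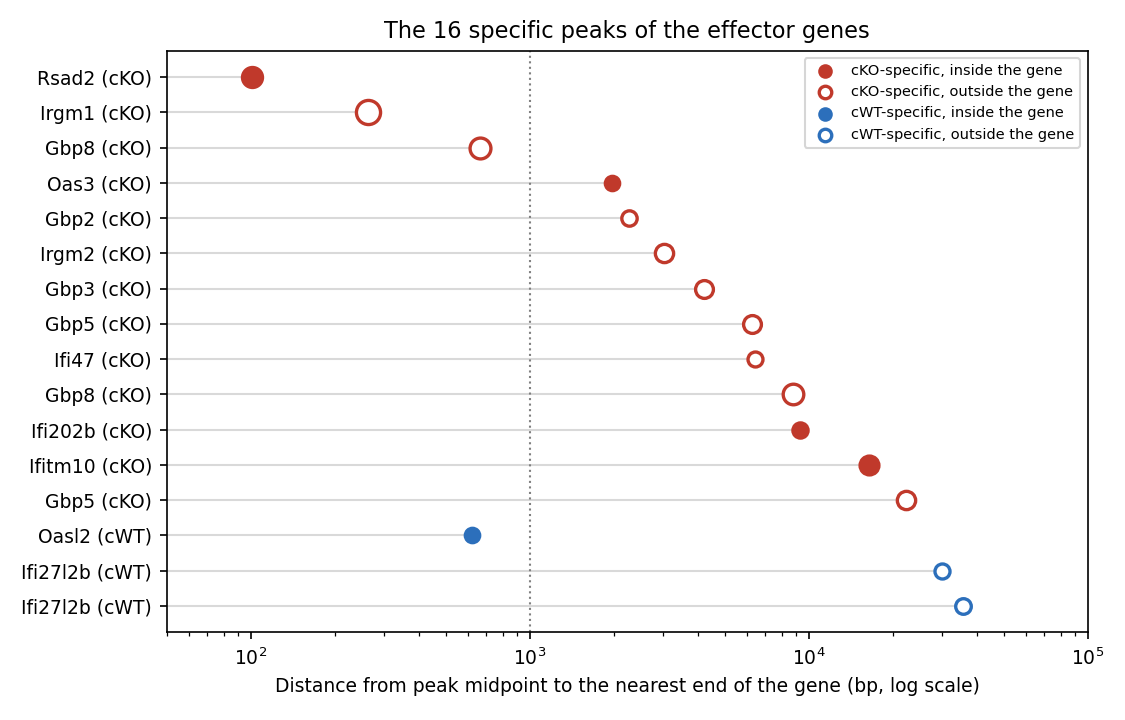
Each point is 1 of the 16 specific peaks, placed by the distance in bp (log scale) from its midpoint to the nearest end of its gene; red is cKO, blue is cWT, filled points lie inside the gene and point area follows the authors' signal. The dotted line marks 1000 bp, inside which lie the peaks of Rsad2 (101 bp), Irgm1 (264 bp), Oasl2 (622.5 bp) and the nearer of Gbp8 (662 bp).

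The guanylate-binding protein genes held the most peaks of any family, 6 cKO-specific and 0 cWT-specific, at 4 of 10 genes. Of all coding genes, 22.5% had a cKO-specific and 11.4% a cWT-specific peak, and 71.7% of all assigned peaks were cKO-specific. The Gbp genes also had a longer median stretch, 57.1 kb beside 46.4 kb for all coding genes, and no excess at this family was tested. Gbp proteins are large GTPases that coat the vacuoles of intracellular microbes. On chromosome 3 the peaks were spread over 4 positions around 3 of the 5 clustered genes. Gbp5, which also promotes inflammasome assembly, had 2, at chr3:142474500-142474737 (signal 15.4, p-value 0.874) and chr3:142490575-142490774 (14.6, 0.802), which lay 22315.5 and 6259.5 bp upstream of its start. Gbp3 had 1, at chr3:142577210-142577652 (signal 14.6, p-value 0.864), which lay 4218 bp beyond its far end. Gbp2 had 1, at chr3:142640210-142640360 (signal 10.9, p-value 0.924), 2277 bp beyond its far end and 151 bp wide. Gbp7 and Gbp2b had none, and none of the 4 peaks lay inside a Gbp gene. The Gbp genes are close copies of each other, and how the authors treated reads that match several copies is not stated.

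On chromosome 5 both peaks belonged to Gbp8. The first, at chr5:105011624-105012078, lay 662 bp from one end of the gene (signal 20.03, p-value 0.729) and the second, at chr5:105062242-105062508, lay 8766 bp from the other end (signal 19.5, p-value 0.905). Gbp9, Gbp4, Gbp10 and Gbp6, which follow along the chromosome, had none. The nearest cWT-specific peak lay 179129 bp from the chromosome 3 peaks and 563546 bp from those of chromosome 5.

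The number in each peak's name rises with position along every chromosome in both lists, and was taken as a running count of all called peaks. From the first to the last cKO-specific peak of the chromosome 3 cluster, a stretch of 165.9 kb, the numbers count 9 called cKO peaks, of which 4 were listed as specific and 5 were not. Over the whole cKO list 25.8% of the numbered peaks were listed, but a stretch that begins and ends on listed peaks has a raised share by construction. In cWT no listed peak lay in the cluster, and the numbering counts 16 called peaks between the listed peaks that flank it, over 2143.43 kb. At Gbp8 the 2 cKO-specific peaks were consecutive in the numbering.

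**Figure D3:**
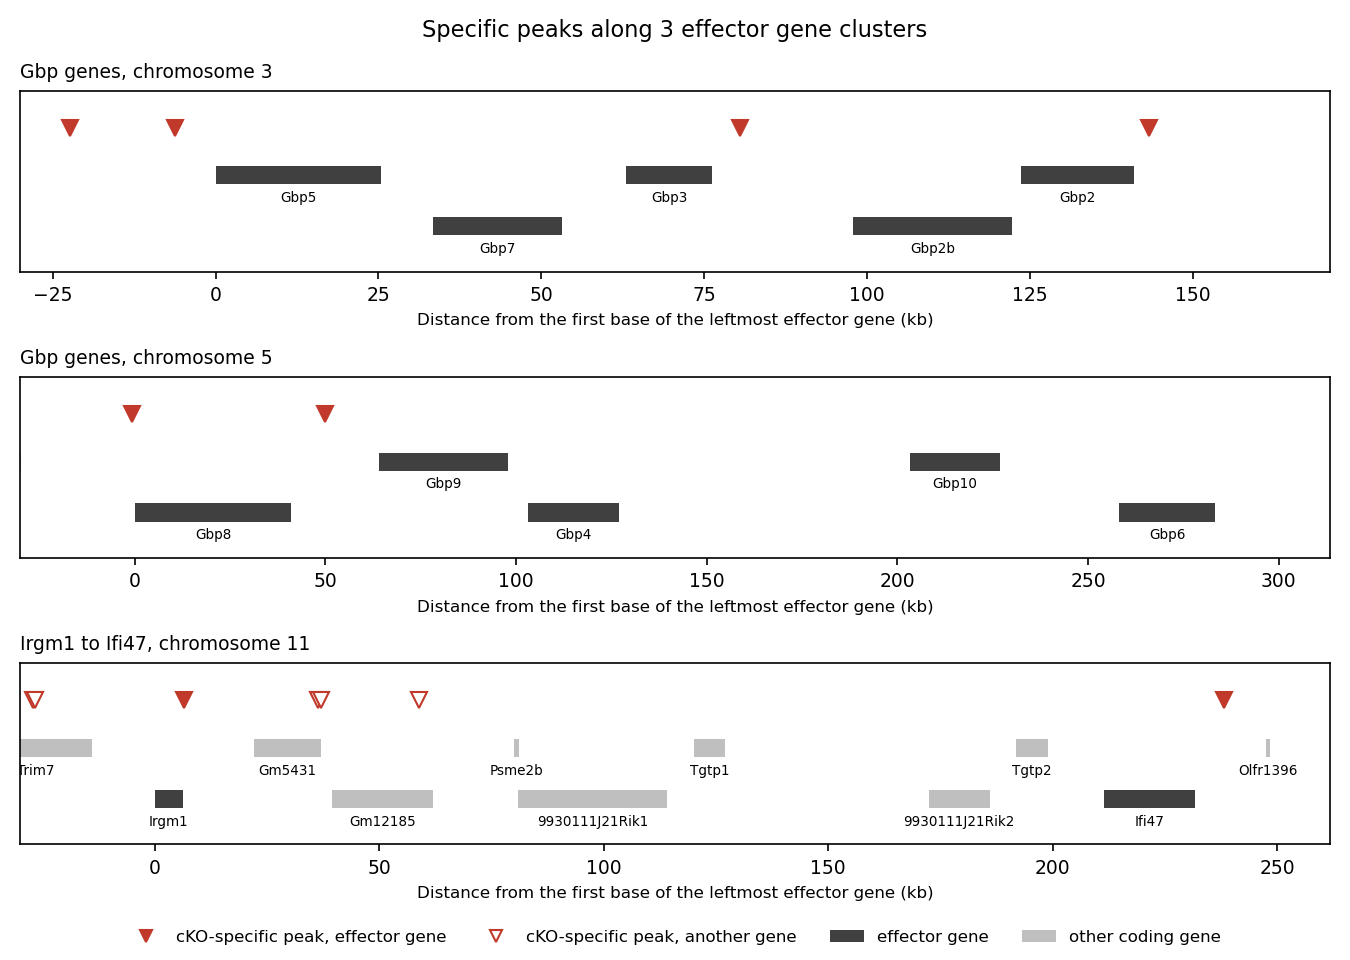
The 3 panels show coding genes as bars (dark, effector genes; light, others) and specific peaks as triangles (filled, assigned to an effector gene; open, assigned to another gene) against the distance in kb from the first base of the leftmost effector gene. All triangles are cKO-specific; the 4 of the chromosome 3 Gbp cluster and the 2 of Gbp8 lie between and outside the genes.

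The Irgm1 locus continues along chromosome 11 to Ifi47, which encodes a further interferon-inducible GTPase. Ifi47 had 1 cKO-specific peak, at chr11:49103187-49103597 (signal 10.3, p-value 0.948), 6405 bp beyond its far end and 26805 bp from its start. In between, the neighbouring coding genes Gm5431 and Gm12185 held further cKO-specific peaks, which are not effector peaks by the rule, and the nearest cWT-specific peak lay 1140603 bp from that of Ifi47. When noncoding genes were allowed to compete, the peaks of Ifi47 and Irgm2 went to the lncRNA genes Gm51892 (1874 bp) and Gm51898 (415.5 bp).

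The oligoadenylate synthetase genes had 1 peak of each genotype among 11 genes. Oas3 carried a cKO-specific peak at chr5:120775491-120775945, inside the gene and 1941 bp downstream of its start (signal 9.42, p-value 0.945). This was the lowest signal of the 13 cKO peaks, at percentile 9.82 of its list. Oasl2 carried a cWT-specific peak at chr5:114897284-114897813, inside the gene and 614.5 bp downstream of its start (signal 9.50, p-value 0.972), at percentile 17.0 of the cWT list by signal. It began past the promoter stretch shown above, in which no response element core was found. Both peaks were in the low part of their lists. The other 9 Oas genes had none, among them Oas2, Oas1a and Oasl1. Between the listed peaks flanking the cluster from Oas2 to Oas1d, 605.94 kb apart in cWT, the numbering leaves room for 5 called cWT peaks, and for 9 in cKO over 645.6 kb, including that of Oas3.

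The remaining peaks lay at single genes of their families. Ifi202b, of the DNA-sensing Ifi200 family, had 1 cKO-specific peak inside the gene at chr1:173973241-173973795 (signal 10.6, p-value 0.872), 9326 bp from its start, and the other 10 genes of that cluster had none. Some of them have near-identical promoter stretches, as Ifi206, Ifi208 and Ifi213 do, so the limit on reads that match several copies holds here too. Ifitm10 had 1 cKO-specific peak inside the gene at chr7:142341938-142342581 (signal 16.3, p-value 0.466), at percentile 89.6 of its list by score. It shares the name of the antiviral Ifitm membrane proteins but lies apart from their cluster. Ifi27l2b had 2 cWT-specific peaks, at chr12:103487316-103487502 (signal 10.4, p-value 0.966) and chr12:103492878-103493162 (11.2, 0.865). They lay 30186 and 35797 bp from the gene, farther than any cKO peak from its gene, and were consecutive in the cWT numbering. The nearest coding gene outside the effector list, Ppp4r4, was not much farther, at 44841 and 39230 bp.

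Several of the best-known effectors had no genotype-specific peak, which was also so for 15769 of the 21887 coding genes. All 6 Ifit genes lacked one, and their median stretch was 17053.5 bp, beside 46.4 kb for all coding genes. The nearest cKO-specific peak to the cluster was assigned to Ch25h, the gene of cholesterol 25-hydroxylase, and lay 66703 bp from Ifit2, and the nearest cWT-specific peak was assigned to Slc16a12 and lay 3304 bp from Ifit1bl1 and 16276 bp from Ifit1. Isg15 had none, but a cWT-specific peak of its neighbour Perm1 lay 2502 bp away. The nearest cKO-specific peak lay 311258 bp from Isg20, an exonuclease gene, and 1163085 bp from Ifi44. The Ifitm genes of the main cluster (Ifitm1, Ifitm2, Ifitm3, Ifitm5 and Ifitm6), Ifitm7, Ifi27, Ifi30 and Ifi35 also had none. Of the 47 genes without a peak, 0 had a cKO-specific peak within 10 kb and 2 a cWT-specific peak, which are Ifit1bl1 and Isg15. An absence from the lists does not show closed chromatin, since a region open in both genotypes would not be listed as specific. Some of these genes are close copies, as Ifit3 and Ifit3b are, and the treatment of reads that match several copies is not stated.

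As a group the cKO peaks were ordinary in strength and close to their genes. Their signal ran from 9.42 to 26.8 with a median of 15.4, beside a median of 16.6 for all assigned cKO peaks, and their p-value from 0.381 to 0.948 with a median of 0.864, beside 0.813. The 3 cWT peaks had signals of 9.50, 10.4 and 11.2, beside a median of 13.7 for all assigned cWT peaks. None of the 16 was among the peaks the authors named primary, which were 2.92% of assigned cKO peaks and 1.45% of assigned cWT peaks. A p-value up to 0.5 was found for 2 of the 13 cKO peaks, those of Irgm1 and Ifitm10, which is 15.4% beside 12.4% of all assigned cKO peaks.

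**Figure D4:**
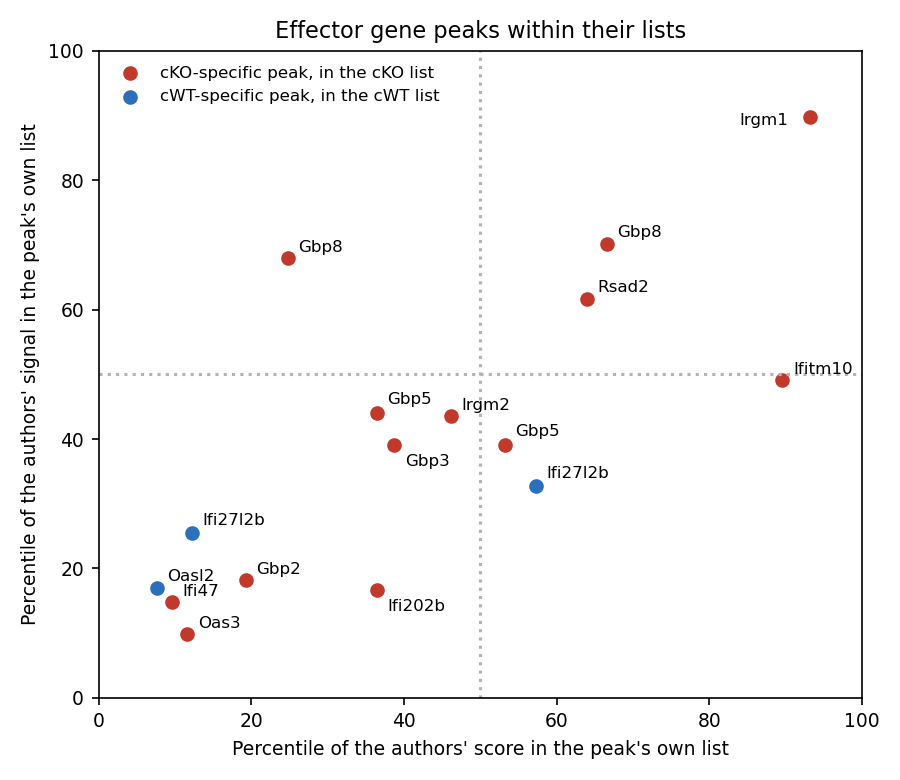
Each point is an effector gene peak, placed by the percentile of its authors' score (x) and signal (y) within its own genotype's list; dotted lines mark the middle of a list. Irgm1 stands highest on both axes (93.2 and 89.8), while Oas3, Ifi47 and Oasl2 lie in the low corner.

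The cKO peaks lay 101 to 22315.5 bp from the ends of their genes, with a median of 4218 bp, beside 10500.5 bp for all assigned cKO peaks. Within 1000 bp of a gene end were 3 of 13, beside 15.0% of assigned cKO peaks, and for cWT 1 of 3, beside 17.8%. Within 10 kb were 11 of 13, beside 48.7%. The effector genes also have a shorter median stretch around them, as given above, and the part of this in the distances was not tested. Inside their gene lay 4 of 13, beside 56.0%, and the part of gene length in this share was not tested. Each of the 16 peaks was at least 5376 bp from the next listed peak of its own genotype and at least 112086 bp from the next of the other. Overlap with the other list was 0 of 16, beside 2.14% of all cKO-specific and 5.27% of all cWT-specific peaks. Nothing is read from this, since each list was deposited as specific to 1 genotype.

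The response element core was common upstream of effector genes whether or not a specific peak was assigned to them. Among the 47 effector genes in the promoter table, 27 (57.4%) had this core in the 250 bases before a start, on either strand, beside 3.48% of the 17492 coding genes in the table. Of the 11 effector genes with a peak in either list, 7 had it, and of the 36 without a peak, 20. All 5 Gbp genes in the table, both Irgm genes, 8 of 10 genes of the Ifi200 family and 5 of 6 Ifit genes had it, against 1 of 7 Ifitm genes and 0 of the 5 other Ifi genes. These 27 genes held 39 matches, which began 12 to 188 bases before the start, and 3 of the matches, at Irgm1 and Rsad2, lay inside a specific peak. Matches were counted per gene, and those of Ifit1 and Ifit1bl2 are the same sites, chr19:34640785-34640794 and chr19:34640804-34640813. Some stretches are near copies of each other, as at Ifit3 and Ifit3b, so the genes are not independent counts. A match is a description of the letters and does not show binding.

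The other motifs were less frequent. The gamma-activated site, TTCNNNGAA, was found at 8 of the 47 genes (17.0%), beside 7.65% of coding genes, among them Gbp5, Irgm2 and Ifit2. The composite of an ETS and an IRF site, which is GGAA and GAAA with any 2 bases in between and can overlap the response element core, was found at 4 (8.51%, beside 2.57%), namely Gbp5, Ifi44, Ifitm6 and Irgm2. The AP-1 motif TGANTCA was found at 11 (23.4%, beside 7.19%), among them Irgm1, Rsad2, Gbp2 and Oas3. Gbp8, Gbp9, Gbp4, Gbp10, Gbp6, Ifi204, Ifi27, Ifi27l2a, Ifi27l2b, Iigp1, Oas1d, Oas1e and Oas2 were not in the table.

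**Figure D5:**
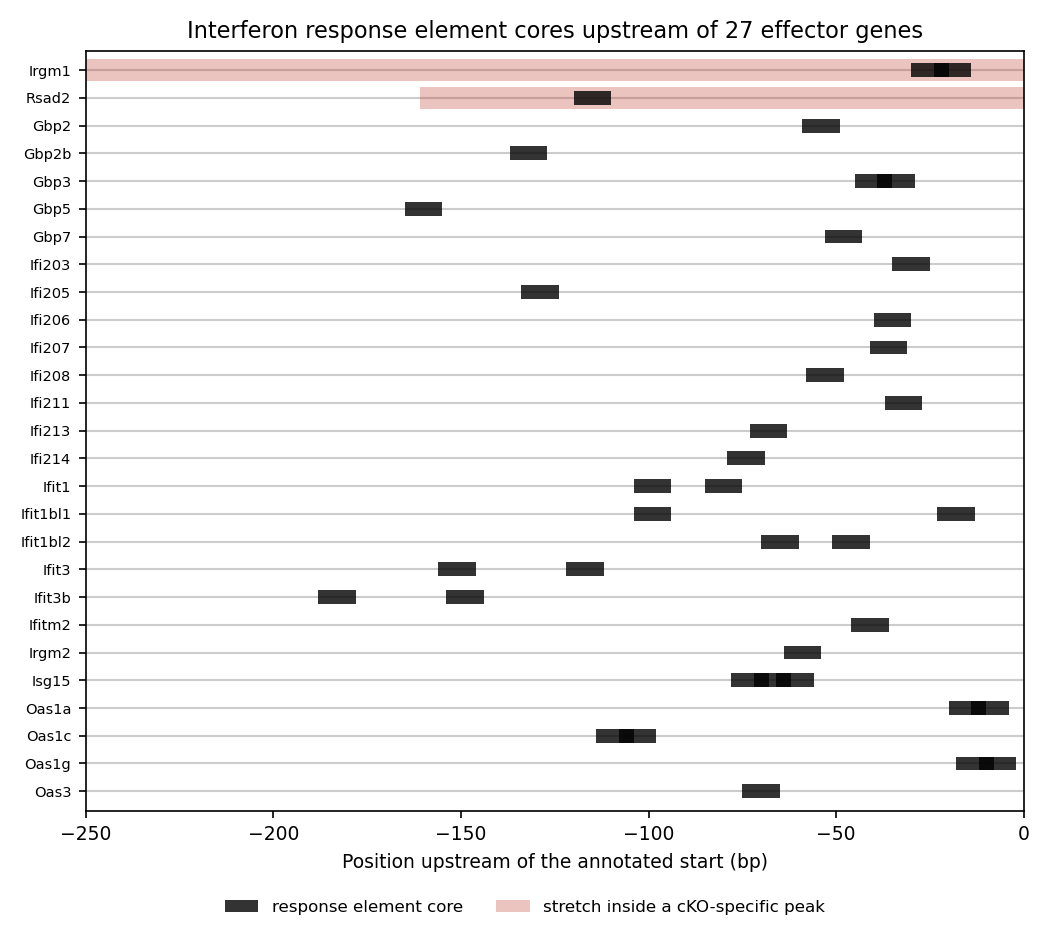
Black bars mark matches to the response element core in the 250 bp before the annotated start of the 27 effector genes that have one (the 2 starts of Ifit1bl1 are overlaid, and darker black is an overlap of matches); shading marks the part inside a cKO-specific peak. Shading is present at Irgm1, over the whole stretch, and at Rsad2, over 161 bp.

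Other genes of the interferon pathway, among them its receptors, regulators and sensors, were counted in the same way. Of 58 other pathway genes listed by role, 28 (48.3%, exact 95% interval 35.0% to 61.8%) had a cKO-specific peak, beside 22.5% of all coding genes, and 12 (20.7%, 11.2% to 33.4%) a cWT-specific peak, beside 11.4%, and the difference from the effector genes was not tested. They held 53 cKO-specific and 16 cWT-specific peaks, a cKO share of 76.8% (65.1% to 86.1%) beside 71.7% of all assigned peaks. Their stretches had a median of 41.9 kb and held 17.99 cKO-specific peaks per megabase (exact Poisson interval 13.5 to 23.5), beside 4.65 for all coding genes, and 5.43 cWT-specific peaks (3.10 to 8.82), beside 1.83. Both densities lay above those of all coding genes, but the intervals count peaks as independent. Single genes held several, as Irf2 with 7 cKO-specific peaks and Ifngr1 and Irf8 with 6 each. The pathway list was also chosen with earlier results of these data known, and no test was made of it. Among receptors, Ifngr1, which encodes part of the receptor for interferon-gamma, had 6 cKO-specific and 0 cWT-specific peaks, 21508 to 99968.5 bp from the gene, Ifnar1 2 and 0 and Ifngr2 1 and 2. Among kinases and STATs, 1 of 6 genes had a cKO-specific peak (16.7%, exact 95% interval 0.421% to 64.1%), beside 22.5% of all coding genes. Jak2, a kinase of the interferon-gamma receptor, had 1 and 0, and Jak1, Tyk2, Stat2 and Stat3 had none. Among interferon regulatory factors, Irf2, which can repress the response, had 7 and 1, Irf8 6 and 3, Irf1 3 and 0, and Irf5 and Irf9 1 and 0 each. Irf3, Irf4 and Irf7 had none.

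Of 13 sensors and adaptors of foreign nucleic acid, 7 had a cKO-specific peak (53.8%, exact 95% interval 25.1% to 80.8%) and 2 a cWT-specific peak (15.4%, 1.92% to 45.4%), beside 22.5% and 11.4% of all coding genes as for the groups that follow. Ddx58, which encodes the RNA sensor RIG-I, had 2 cKO-specific and 1 cWT-specific peaks, Aim2 and Tlr3 2 and 0 each, Dhx58, Mavs, Tbk1 and Tlr7 1 and 0 each, and Ikbke 0 and 1. The Tlr7 peak lay 6.5 bp and the Dhx58 peak 65.5 bp from an end of the gene. Of 20 effector genes that the naming rule leaves out, 7 had a cKO-specific peak (35.0%, 15.4% to 59.2%) and 5 a cWT-specific peak (25.0%, 8.66% to 49.1%). Eif2ak2, which encodes the RNA-activated kinase PKR, Trim25 and Tap2 had 1 and 0, Apobec3 2 and 2, Dtx3l and Herc6 1 and 1, and Adar and Psmb9 0 and 1. Among brakes of the response 5 of 6 had a cKO-specific peak (83.3%, 35.9% to 99.6%) and 1 a cWT-specific peak (16.7%, 0.421% to 64.1%). Socs3 had 2 and 0, Socs1, Ptpn2 and Ptpn6 1 and 0 each, and Usp18, the Isg15-removing protease, 1 and 1.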

How the data were processed

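The submitters' processing notes name Bowtie2 2.4.4, MACS2 2.2.7.1 and HOMER 4.11 with GRCm38 and mm10. The role of each tool, any read shift, the handling of reads that match several gene copies and the choice of specific peaks have no statement in the sources used here. The columns have no header. The score the authors deposited equals -125 times log2 of the p-value the authors deposited, rounded down, in all 8615 and 3490 peaks. The scale of the signal the authors deposited and what the p-value tests are not stated.

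Peaks were assigned to the nearest end of 21887 coding genes, and this was checked on 5000 simulated positions, all recovered. Intervals are exact 95% intervals (Clopper-Pearson or Poisson). Starts, strands and promoter sequences came from RefSeq (GRCm38.p6). No test was made: members and lists were chosen with earlier results of these data known. Of 63 pathway entries 58 are coding symbols. Named genes are every effector or pathway gene with a peak. The results of 2 such genes are not reported here. Genes named as neighbours or for lacking a peak were chosen after their values were seen. Python 3.11.15, numpy 2.4.6, pandas 2.3.3, scipy 1.17.1 and matplotlib 3.10.9 were used.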

Additional observations from a re-analysis of the deposited data

How the results depend on the processing

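Limiting assignment to 50 kb, assigning by gene span and merging peaks within 500 bp left the 13 and 3 peaks and the 13 genes as they were. When all annotated genes competed, 11 cKO-specific and 3 cWT-specific peaks were kept. With p-values up to 0.5, 2 peaks were left, a cKO share of 100%, at 2 genes in cKO and 0 in cWT; over all assigned peaks the cKO share was then 83.3%, and 4.18% and 0.886% of coding genes had a peak. With scores at or above the median of each list, 5 genes had a cKO-specific and 1 a cWT-specific peak. Of all coding genes, 14.1% and 6.57% then had one. The cWT median distance was 35797 bp from 1 peak. With a limit of 10 kb, 10 genes had a cKO-specific peak and 1 a cWT-specific peak, at 622.5 bp. Of all coding genes, 14.2% and 6.12% then had one. The cKO share was 91.7% (61.5% to 99.8%), beside 72.6% of all assigned peaks. These alternatives leave fewer peaks by construction. Overlap between the lists at the effector genes was 0 at either minimum. No replicate could be left out, since the lists hold no values per library. No paired analysis was possible because the columns carry no replicate. Depth is unknown, and with 16 peaks the interval of the cKO share spans 54.4% to 96.0%.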

Other observations

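Promoters with the response element core were also counted under the specific peaks of all genes, a count added after the data were seen. The 250 bases before a start touched a cKO-specific peak at 496 coding genes, and 30 of them (6.05%, exact 95% interval 4.12% to 8.52%) held it. For cWT-specific peaks it was 6 of 238 (2.52%, 0.931% to 5.41%), beside 3.48% of all coding genes in the table. In all 4 motifs were counted. For the AP-1 motif TGANTCA the shares were 5.65% (3.78% to 8.06%) and 4.20% (2.03% to 7.59%), beside 7.19%. The gamma-activated site and the ETS-IRF composite went the other way, with the lower share under cKO-specific peaks. The shares were 6.05% and 7.98% (4.87% to 12.2%) for the first, beside 7.65% of coding genes, and 1.41% (0.569% to 2.89%) and 2.10% (0.686% to 4.83%) for the second, beside 2.57%. None of these differences was tested. Irgm1 and Rsad2 were the effector genes among the 30 with the response element core, and 0 of the 30 were on the list of other pathway genes. That list holds 58 genes picked by role, so the 0 does not show that no further interferon-induced gene is among the 30. Itpka and Tlr11 were counted for both lists.

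A peak covered the whole 250 bases, as at Irgm1, at 154 of the 496 cKO genes (31.0%) and 60 of the 238 cWT genes (25.2%).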
